A study of Homo sapiens with 8 samples.

Results

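Transcript levels of SOX9 and of 8 genes linked to the transcriptional coactivator YAP (CCN1, CCN2, ANKRD1, AMOTL2, AJUBA, LATS2, F3 and AXL) were followed over 8 expression arrays of SKBR3 cells, an established human HER2-positive breast cancer line. These 9 genes, of 19775 genes measured in all, were found through the platform annotation, which assigned 18 probe sets to them. CCN2 and SOX9 had been chosen by their low values on the array of E2-BSA plus G15 set against that of E2-BSA. Both arrays of that contrast therefore entered the choice, and for CCN2 and SOX9 every difference that holds either array draws on the choosing values and is a description. The other 7 were picked, with earlier results of these data known, as genes commonly described as YAP targets or partners.

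Each of the 8 conditions had 1 array. All cells first spent 4 h in a medium whose serum (10%) had been stripped with charcoal, which takes out most steroids. Treatment lasted 3 h. The treatments were E2-BSA (estradiol linked to the carrier protein bovine serum albumin) at 1e-06 M together with G15 at 1e-05 M, E2-BSA at 1e-06 M together with ICI at 1e-05 M, E2-BSA alone at 1e-06 M, free estradiol at 1e-06 M, G15 alone at 1e-05 M, ethanol at 0.1% (the vehicle of estradiol), the carrier BSA at 1e-06 M, and medium alone (untreated). The labels give ICI by this abbreviation alone. E2-BSA is used as a form of estradiol that stays outside the cell, and G15 is an antagonist of the membrane estrogen receptor GPER.

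YAP and its relative TAZ shuttle between cytoplasm and nucleus, where they bind TEAD transcription factors and switch on genes of growth, matrix and cell shape. The kinases of the Hippo pathway, among them LATS2, phosphorylate YAP and hold it in the cytoplasm. Signals from many G protein-coupled receptors act on this switch. CCN2, also called connective tissue growth factor, is commonly described both as a YAP target and as a gene responsive to GPER ligands in SKBR3 cells. SOX9 is a transcription factor of chondrocytes and of progenitor cells in many epithelia, including the breast.

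The deposited values are centred for each probe set, so a value gives how an array stands relative to the others and carries no absolute level. Whether a gene was expressed at all, and whether the markers of HER2-positive luminal cells were present, could not be read from them. The values were taken as log2. The sources used here do not state the base, and on a natural-log scale the folds would be larger. With no repeated condition, none of the differences has a replicate error. As a yardstick, BSA minus untreated, a pair with neither hormone nor antagonist, had an SD over all genes of 0.166, and ethanol minus untreated had 0.304. No batch is given in the labels.

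The promoter windows of 3 genes are shown because CCN2 leads the set, F3 had another order of arrays, and ANKRD1 is a common YAP readout. They were chosen with the values known. They run from 250 bases before to 50 bases after the RefSeq gene start on GRCh38.p14 and are given 5′ to 3′ on the strand of the gene. Capitals mark matches to the TEAD motif GGAATG and to TGANTCA, used here as the AP-1 motif with N as any base. Each was searched on both strands. The CCN2 window is chr6:131951323-131951622 (minus strand), that of ANKRD1 is chr10:90921038-90921337 (minus strand) and that of F3 is chr1:94541710-94542009 (minus strand).
CCN2: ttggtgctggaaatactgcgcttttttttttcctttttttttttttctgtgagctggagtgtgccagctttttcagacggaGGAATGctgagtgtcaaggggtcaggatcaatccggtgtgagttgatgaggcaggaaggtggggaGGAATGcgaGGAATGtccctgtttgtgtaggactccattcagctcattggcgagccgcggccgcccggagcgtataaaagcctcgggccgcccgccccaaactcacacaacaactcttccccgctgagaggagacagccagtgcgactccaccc
ANKRD1: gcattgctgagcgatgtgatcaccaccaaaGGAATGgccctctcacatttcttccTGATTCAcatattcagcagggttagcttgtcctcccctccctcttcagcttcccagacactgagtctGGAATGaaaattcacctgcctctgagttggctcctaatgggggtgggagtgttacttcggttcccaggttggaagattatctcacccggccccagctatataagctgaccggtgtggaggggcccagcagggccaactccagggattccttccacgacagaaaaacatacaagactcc
F3: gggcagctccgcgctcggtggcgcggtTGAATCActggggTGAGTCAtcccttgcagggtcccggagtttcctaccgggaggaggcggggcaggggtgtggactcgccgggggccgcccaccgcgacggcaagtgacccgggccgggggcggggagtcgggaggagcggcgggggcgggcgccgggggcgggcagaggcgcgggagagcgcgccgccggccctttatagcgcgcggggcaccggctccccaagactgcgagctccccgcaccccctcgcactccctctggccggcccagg

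The CCN2 window held 3 matches to the TEAD motif, which begin 169, 104 and 95 bases before the gene start. The ANKRD1 window held 2 TEAD matches, at 220 and 128 bases before the start, and 1 AP-1 match at 195. The F3 window held 2 AP-1 matches, at 223 and 210 bases before the start, and no TEAD match. Of the 9 genes, 7 had a window in the RefSeq table, all but CCN1 and SOX9. LATS2 had 1 TEAD match, 9 bases after its start, and AMOTL2, AJUBA and AXL had none of either motif. TEAD matches were thus found in 3 of 7 windows and in 14.03% of the 35116 windows of all genes. AP-1 matches were found in 2 of 7 windows, against 7.71% of all. The CArG box bound by SRF was found in 0 of 7, against 1.29% of all. No TEAD match overlapped an AP-1 match in these windows. A match describes these letters and is not shown to be a bound site.

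**Figure D1:**
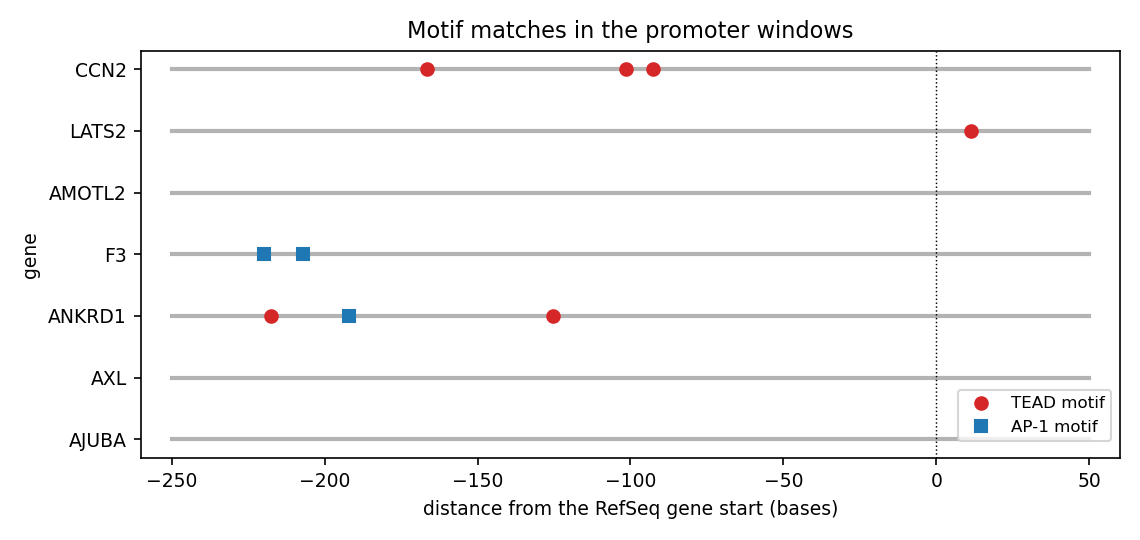
Positions of TEAD (circles) and AP-1 (squares) motif matches in the promoter windows of 7 genes, by distance in bases from the RefSeq gene start (dotted line). CCN2 carries 3 TEAD matches, ANKRD1 2 and LATS2 1, while F3 carries 2 AP-1 matches.

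CCN2 had the widest span of the 9 genes. Its single probe set stood at -0.60 with E2-BSA plus G15, -0.10 with E2-BSA plus ICI, 0.41 with E2-BSA, 0.19 with estradiol, -0.06 with G15, 1.68 with ethanol, -0.17 with BSA and 0.08 in untreated cells. The ethanol array was the highest and the E2-BSA plus G15 array the lowest, with a span of 2.28. Without the ethanol array the span was 1.01, which is the difference that chose the gene. The estradiol, untreated, G15, E2-BSA plus ICI and BSA arrays followed each other in steps smaller than 0.166. Neighbours among them cannot be told apart on this yardstick. The ends of this run, estradiol at 0.19 and BSA at -0.17, lay further apart than 0.166.

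SOX9 shared the ends of this order and not its middle. Its mean of 2 probe sets was -0.61 with E2-BSA plus G15, -0.01 with E2-BSA plus ICI, 0.44 with E2-BSA, -0.13 with estradiol, -0.31 with G15, 1.11 with ethanol, 0.12 with BSA and -0.15 in untreated cells. Ethanol and E2-BSA again held the highest values and E2-BSA plus G15 the lowest. Without ethanol the span was 1.06, again the difference that chose the gene. BSA was the third highest for SOX9 and the second lowest for CCN2, and Spearman's rho between the genes was 0.619 over 8 arrays and 0.429 without ethanol. The steps between BSA, E2-BSA plus ICI, estradiol, untreated and G15 were all smaller than 0.166. The probe sets parted on the G15 array, where one stood at -0.59 and the other at -0.03.

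**Figure D2:**
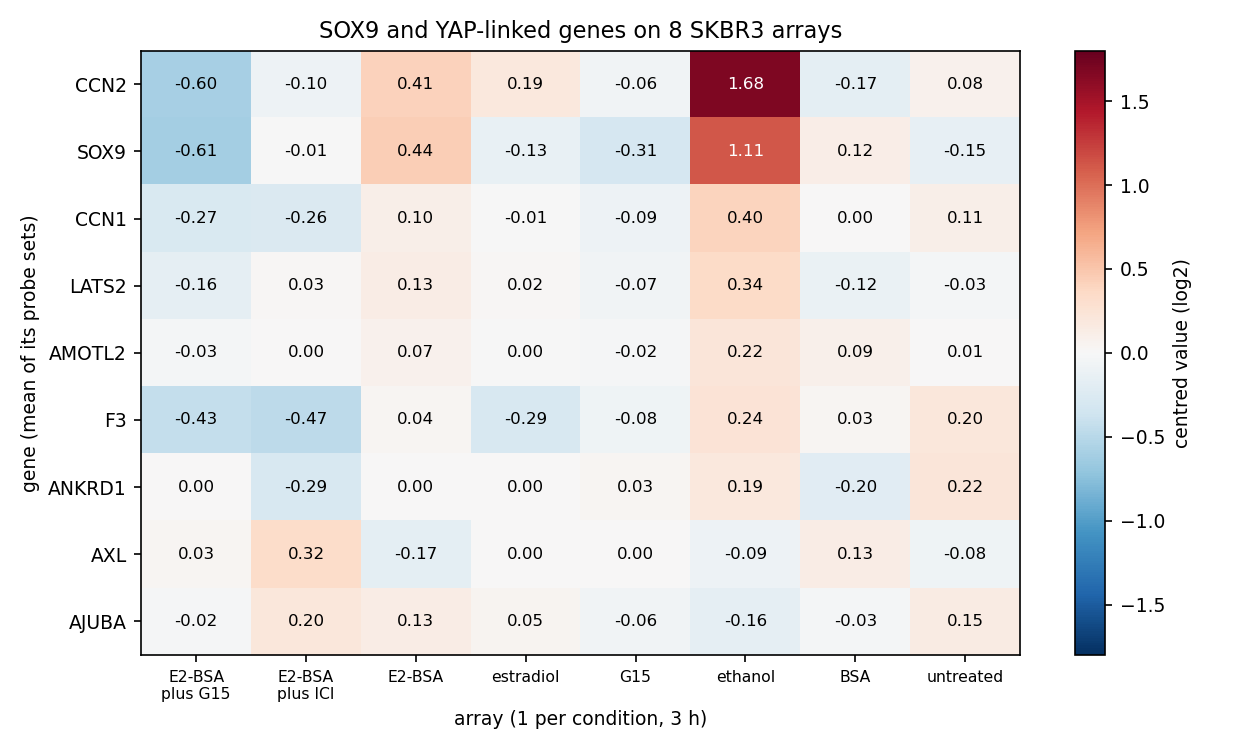
Centred log2 values of the 9 genes (rows, each the mean of its probe sets) on the 8 arrays (columns, 1 per condition), with colour from blue (low) to red (high). CCN2 and SOX9 are highest with ethanol, at 1.68 and 1.11, next highest with E2-BSA, and lowest with E2-BSA plus G15, at -0.60 and -0.61.

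The other 7 genes moved less. CCN1, a secreted matricellular protein and the closest relative of CCN2 in this set, stood at -0.27 with E2-BSA plus G15, -0.26 with E2-BSA plus ICI, 0.10 with E2-BSA, -0.01 with estradiol, -0.09 with G15, 0.40 with ethanol, 0.00 with BSA and 0.11 in untreated cells. LATS2, the Hippo kinase and itself a YAP target, ranged from -0.16 with E2-BSA plus G15 to 0.34 with ethanol. AMOTL2, a scaffold protein that binds YAP, ranged from -0.03 with E2-BSA plus G15 to 0.22 with ethanol. ANKRD1, a nuclear ankyrin-repeat protein often used as a YAP readout, ranged from -0.29 with E2-BSA plus ICI to 0.22 in untreated cells. Its value was exactly 0.00 on 3 arrays. AXL, a receptor tyrosine kinase, ranged from -0.17 with E2-BSA to 0.32 with E2-BSA plus ICI. AJUBA, a LIM protein that restrains LATS kinases, ranged from -0.16 with ethanol to 0.20 with E2-BSA plus ICI. The spans of AMOTL2 (0.256) and AJUBA (0.361) were near or below the median span of all genes, 0.337.

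F3, which encodes tissue factor, the starter of blood coagulation, had a pattern of its own. It stood at -0.43 with E2-BSA plus G15, -0.47 with E2-BSA plus ICI, 0.04 with E2-BSA, -0.29 with estradiol, -0.08 with G15, 0.24 with ethanol, 0.03 with BSA and 0.20 in untreated cells. The arrays of estradiol and of E2-BSA with ICI or G15 were lower than the other 5. These are also the arrays on which ID1, a target of bone morphogenetic protein signalling, was lowest, at -1.70 with E2-BSA plus G15, -1.93 with E2-BSA plus ICI and -2.02 with estradiol, against -0.34 to 0.17 elsewhere. F3 has 1 probe set, so no second probe set checks this order.

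**Figure D3:**
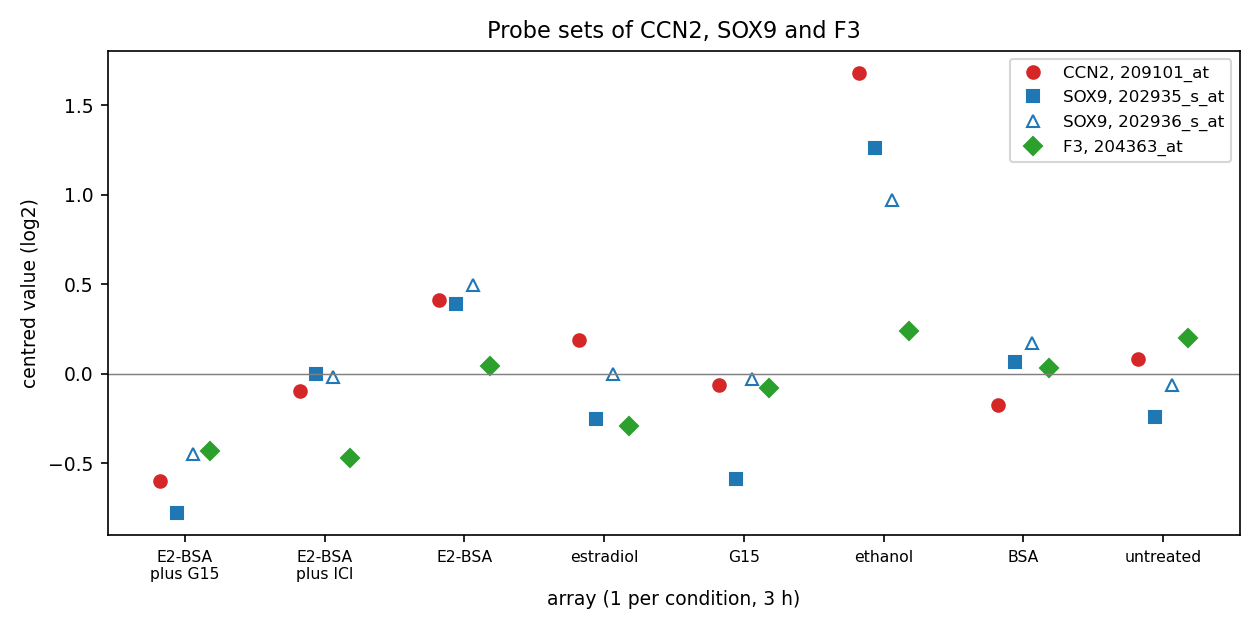
Centred log2 values of single probe sets of CCN2 (circles), SOX9 (squares and open triangles) and F3 (diamonds) on the 8 arrays, 1 per condition. The CCN2 probe set and both of SOX9 are highest with ethanol and lowest with E2-BSA plus G15; F3 is lowest with E2-BSA plus ICI, at -0.47.

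The extremes of the set fell on few arrays. Of the 9 genes, 6 were highest on the ethanol array, where 19.5% of all genes had their highest value. On the E2-BSA plus G15 array 5 of the 9 were lowest, namely CCN1, CCN2, AMOTL2, LATS2 and SOX9, beside 11.5% of all genes. Since CCN2 and SOX9 were chosen by that array, their places in that count are fixed by the choice.

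The first comparison addressed what the GPER antagonist changes in cells that receive the coupled hormone. CCN2 stood at -0.60 with E2-BSA plus G15 and at 0.41 with E2-BSA, a difference of -1.01 or 2.01-fold. SOX9 stood at -0.61 with E2-BSA plus G15 and 0.44 with E2-BSA, a difference of -1.06 or 2.08-fold. Across all genes 0.0303% were lower by 2-fold or more, 6 genes in all, and CCN2 at -1.01 lay just inside that line, with F3 at -0.47 the next of the 9 outside it. These values describe what chose the genes and support nothing further. Of the genes not chosen by this contrast, F3 differed by -0.47, CCN1 by -0.37, LATS2 by -0.28, AJUBA by -0.15, AMOTL2 by -0.11, ANKRD1 by 0.00 and AXL by 0.20. Of these 7, 5 lay below 0, beside 51.7% of all genes, with a median of -0.15 against -0.01 over all genes.

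Probe sets within a gene bore unequally on these means. Both probe sets of SOX9 were lower, by -1.17 and -0.94, as were both of CCN1 and all 4 of AJUBA. For LATS2, 3 of 4 were lower, and 1 of them gave -0.91 while the other 3 lay between -0.15 and 0.00. For AXL 1 probe set differed by 0.41 and the other by 0.00.

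These values also carry the height of the E2-BSA array. Set against the BSA carrier, E2-BSA plus G15 gave -0.42 for CCN2, -0.73 for SOX9, -0.46 for F3 and -0.27 for CCN1. SOX9 was the 1 gene of the 9 lower by at least 1.5-fold, beside 0.238% of all genes. In this direction 144 genes differed by more than F3. The remaining 5 lay between -0.13 for AMOTL2 and 0.20 for ANKRD1.

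What the coupled hormone changes was read against the BSA carrier. CCN2 stood at 0.41 with E2-BSA and at -0.17 with BSA, a difference of 0.58 that fell just short of 1.5-fold. None of the 9 genes reached 1.5-fold, which 0.339% of all genes did in the higher direction. SOX9 differed by 0.32, LATS2 by 0.25, ANKRD1 by 0.20, AJUBA by 0.16, CCN1 by 0.10, F3 by 0.01, AMOTL2 by -0.02 and AXL by -0.31. Without CCN2 and SOX9, 5 of 7 lay above 0, beside 49.3% of all genes. With limma's mean of the untreated, ethanol and BSA arrays as the reference, the sign of CCN2 turned, to -0.12, and SOX9 gave 0.08. The signs of CCN1 and ANKRD1, both at -0.07, and of F3, at -0.12, turned as well. AJUBA at 0.14 and LATS2 at 0.06 stayed above 0.

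Against untreated cells the picture was narrower. SOX9 was higher with E2-BSA by 0.59, or 1.51-fold. It was the 1 gene of the 9 past 1.5-fold, beside 0.111% of all genes. CCN2 was higher by 0.33, and LATS2 by 0.16, whereas ANKRD1 differed by -0.22 and F3 by -0.16, and 5 of the 9 lay below 0, beside 45.5% of all genes. The carrier alone shifted these genes by amounts of similar size. On BSA minus untreated CCN2 differed by -0.25, SOX9 by 0.27 and ANKRD1 by -0.43, with 6 of 9 below 0 against 49.4% of all genes and 0 of 9 past 1.5-fold in either direction against 0.556%.

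The arrays also allow E2-BSA to be followed in the presence and absence of G15, through 4 separate arrays. With G15, E2-BSA plus G15 minus G15 gave -0.54 for CCN2 and -0.30 for SOX9. Without it, E2-BSA minus BSA gave 0.58 and 0.32. The labels give no BSA on the G15 array, so the contrast with G15 still holds the carrier, which E2-BSA minus BSA takes out. CCN2 and SOX9 were the 2 of the 9 genes that were higher without G15 and lower with it, each time by more than 0.166, as 1.94% of all genes were. F3 gave -0.35 with G15 and 0.01 without, CCN1 gave -0.19 with G15 and 0.10 without, and LATS2 gave -0.09 with G15 and 0.25 without. E2-BSA minus untreated, which also holds the carrier, gave 0.33 for CCN2, 0.59 for SOX9 and 0.16 for LATS2. It gave -0.16 for F3 and -0.01 for CCN1, so their values without G15 depend on the reference. With G15, 5 of the 7 genes other than CCN2 and SOX9 lay below 0, beside 54.9% of all genes. Each of these contrasts holds 1 of the 2 arrays that chose CCN2 and SOX9, so that opposite signs in these genes are favoured by the choice and nothing is read from them.

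**Figure D4:**
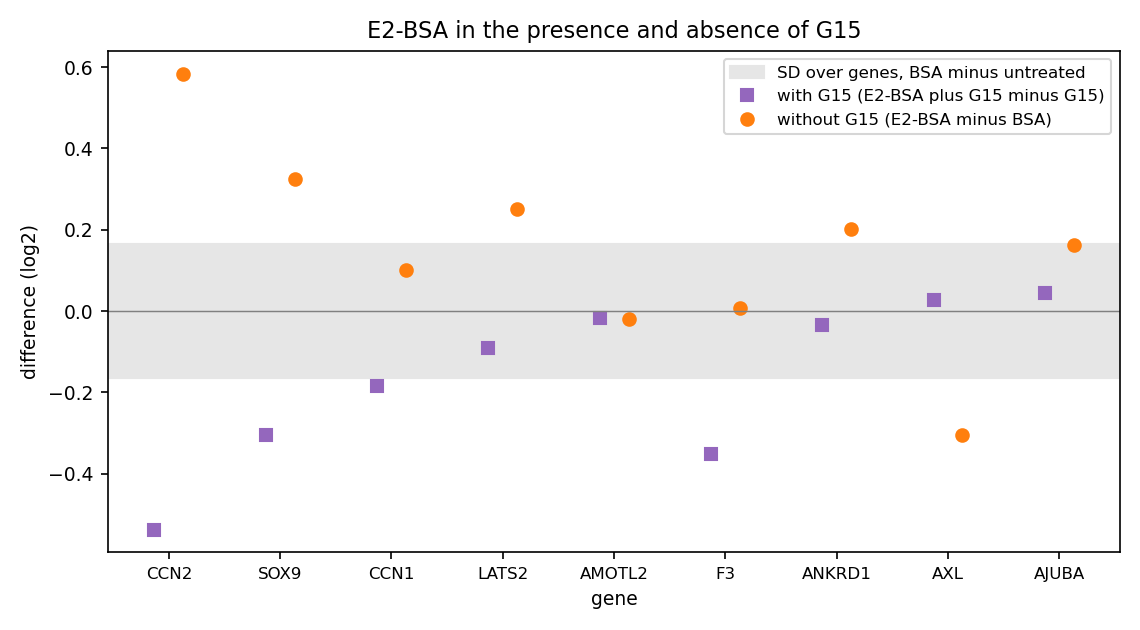
Difference on the log2 scale for each gene with G15 (squares, E2-BSA plus G15 minus G15) and without G15 (circles, E2-BSA minus BSA); the grey band is the SD over genes of BSA minus untreated, 0.166. CCN2 (-0.54 with G15, 0.58 without) and SOX9 (-0.30 and 0.32) leave the band on both sides.

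G15 alone, compared with untreated cells, gave values from -0.28 to 0.08 for these genes. CCN2 differed by -0.14, SOX9 by -0.16, CCN1 by -0.20, AJUBA by -0.21 and F3 by -0.28. AXL, at 0.08, was the 1 gene above 0, so that 8 of 9 lay below 0, against 45.1% of all genes. BSA minus untreated, without antagonist, placed 6 of 9 below 0 and shares the untreated array.

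ICI added to E2-BSA was compared with E2-BSA alone. F3 differed by -0.51, CCN2 by -0.51, SOX9 by -0.45, CCN1 by -0.36, ANKRD1 by -0.29, LATS2 by -0.10 and AMOTL2 by -0.07. AXL differed by 0.50 and AJUBA by 0.08. Without CCN2 and SOX9, 5 of 7 lay below 0, beside 46.8% of all genes, and 0 of 9 reached 1.5-fold in either direction, against 1.6%. Against the BSA carrier F3 still differed by -0.50 and CCN1 by -0.26, while CCN2 differed by 0.08 and SOX9 by -0.13. The AJUBA mean joins 1 probe set at 0.73 with 3 others between -0.20 and -0.11.

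Set side by side, ICI and G15, each with E2-BSA, differed in CCN2 and SOX9 but hardly in F3 and CCN1. The G15 combination holds the low values that chose CCN2 and SOX9. Their differences here are therefore favoured by the choice, and nothing is read from the contrast with F3 and CCN1. The ICI combination minus the G15 combination gave 0.60 for SOX9, 0.50 for CCN2, 0.30 for AXL, 0.01 for CCN1, -0.04 for F3 and -0.29 for ANKRD1. SOX9 was the 1 gene past 1.5-fold in the higher direction, as were 0.283% of all genes. ICI and G15 were both given at 1e-05 M.

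Free estradiol gave a different result from E2-BSA for SOX9 and F3. Both were given at 1e-06 M for the same time, and the structural difference is the attached albumin. Ethanol, the vehicle of estradiol, may be a further difference, and the labels list it for neither array. Ethanol minus untreated gave 1.27 for SOX9 and 0.04 for F3. A part of the vehicle in the differences below was not tested. The labels do not say whether the dose of E2-BSA counts the conjugate or its hormone. SOX9 stood at -0.13 with estradiol and 0.44 with E2-BSA, a difference of -0.57, of which the E2-BSA value helped to choose the gene. F3 stood at -0.29 with estradiol and 0.04 with E2-BSA, a difference of -0.33. CCN2 differed by -0.22, CCN1 by -0.11 and ANKRD1 by 0.00. Without CCN2 and SOX9, 5 of 7 lay below 0, beside 52.6% of all genes. With 1 array each, these differences have no interval from replicates.

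On estradiol minus untreated CCN2 differed by 0.11 and SOX9 by 0.02, both less than 0.166. F3 was the gene of the 9 that differed most, by -0.49 or 1.41-fold, and 49 genes were lower by more. ANKRD1 differed by -0.22 and CCN1 by -0.12. None of the 9 reached 1.5-fold in either direction, which 0.177% of all genes did.

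The ethanol array held the largest values of CCN2 and SOX9. With 1 array, an effect of the vehicle and a trait of that array alone cannot be told apart. The estradiol array stood at 0.19 for CCN2 and -0.13 for SOX9. CCN2 stood at 1.68 with ethanol and 0.08 in untreated cells, a difference of 1.60 or 3.03-fold. SOX9 stood at 1.11 with ethanol and -0.15 in untreated cells, a difference of 1.27 or 2.40-fold. They were the 2 of the 9 genes higher by at least 2-fold, beside 0.87% of all genes. LATS2 differed by 0.38, CCN1 by 0.29, AMOTL2 by 0.21, F3 by 0.04, AXL by -0.01, ANKRD1 by -0.04 and AJUBA by -0.31. The immediate early gene FOS was higher by 2.78 on this array, and its part in the CCN2 and SOX9 values was not tested. With arrays quantile normalized the CCN2 difference was 0.58 and that of SOX9 0.70, both under 2-fold.

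Estradiol minus ethanol accordingly gave -1.49 for CCN2 and -1.24 for SOX9, which were the 2 of the 9 genes lower by 2-fold, beside 0.865% of all genes. Against the mean of the untreated and BSA arrays the sign of CCN2 turned, to 0.23, and SOX9 gave -0.11. F3 differed by -0.53 from ethanol and by -0.49 from untreated, so that its value did not rest on the ethanol array. Ethanol at 0.24 and untreated at 0.20 were the highest arrays of F3. The BSA array, at 0.03, lay nearer to estradiol at -0.29.

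The ethanol, BSA and untreated arrays, the shared reference of the differences below, are different treatments and not replicates. For CCN2 they stood at 1.68, -0.17 and 0.08. The sole estimate of spread among arrays, with the differences between these treatments included, came from a limma fit that treated them as 1 group. In it 0 of 19775 genes had an adjusted p under 0.05 on any of the 5 other arrays, while 197 to 821 genes an array had an unadjusted p under 0.05. For CCN2 on E2-BSA plus G15 the difference was -1.13 with a 95% interval of -3.38 to 1.12, and for SOX9 it was -0.97 with an interval of -2.48 to 0.53 (limma, adjusted p = 1 for both). F3 gave -0.59 (-0.92 to -0.25) on E2-BSA plus G15, -0.63 (-0.96 to -0.29) on E2-BSA plus ICI and -0.45 (-0.79 to -0.12) on estradiol. It was the 1 gene of the 9 with an unadjusted p under 0.05 on each of these arrays, beside 1.83%, 4.15% and 0.996% of all genes in that order. Its adjusted p was 1, 0.989 and 1 (limma).

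Other genes of the pathway were read from a list of 15 further members of a published YAP signature, of which 14 were measured. Against E2-BSA, E2-BSA plus G15 gave a list median of -0.13, and 12 of 14 lay below 0, beside 51.7% of all genes. IGFBP3, a carrier of insulin-like growth factors, differed by -0.92 and FJX1 by -0.83, the 2 of 14 lower by 1.5-fold, beside 0.359% of all genes, and ASAP1, a regulator of ARF GTPases, by -0.52. Against BSA, E2-BSA plus G15 gave a median of -0.05 with 8 of 14 below 0, beside 51.2% of all genes, and IGFBP3 at -0.56. IGFBP3 stood at -0.69 with E2-BSA plus G15, -0.08 with E2-BSA plus ICI, 0.23 with E2-BSA, 0.00 with estradiol, -0.09 with G15, 0.28 with ethanol, -0.13 with BSA and 0.13 in untreated cells. It was lowest on the same array as CCN2. IGFBP3 is shown as the lowest of the 14 on the contrast that chose CCN2, so nothing is read from this likeness.

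The same list lay above 0 in 12 of 14 genes on E2-BSA minus BSA, beside 49.3% of all genes, with a median of 0.07, led by ASAP1 at 0.58 and FJX1 at 0.45. It lay below 0 in 11 of 14 on E2-BSA plus ICI minus E2-BSA, beside 46.8% of all genes, with a median of -0.20. These contrasts share the E2-BSA array. On ethanol minus untreated the stress gene GADD45A was higher by 2.52 and FJX1 by 0.68, and the median was 0.04. On estradiol minus untreated the median was 0.00.

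**Figure D5:**
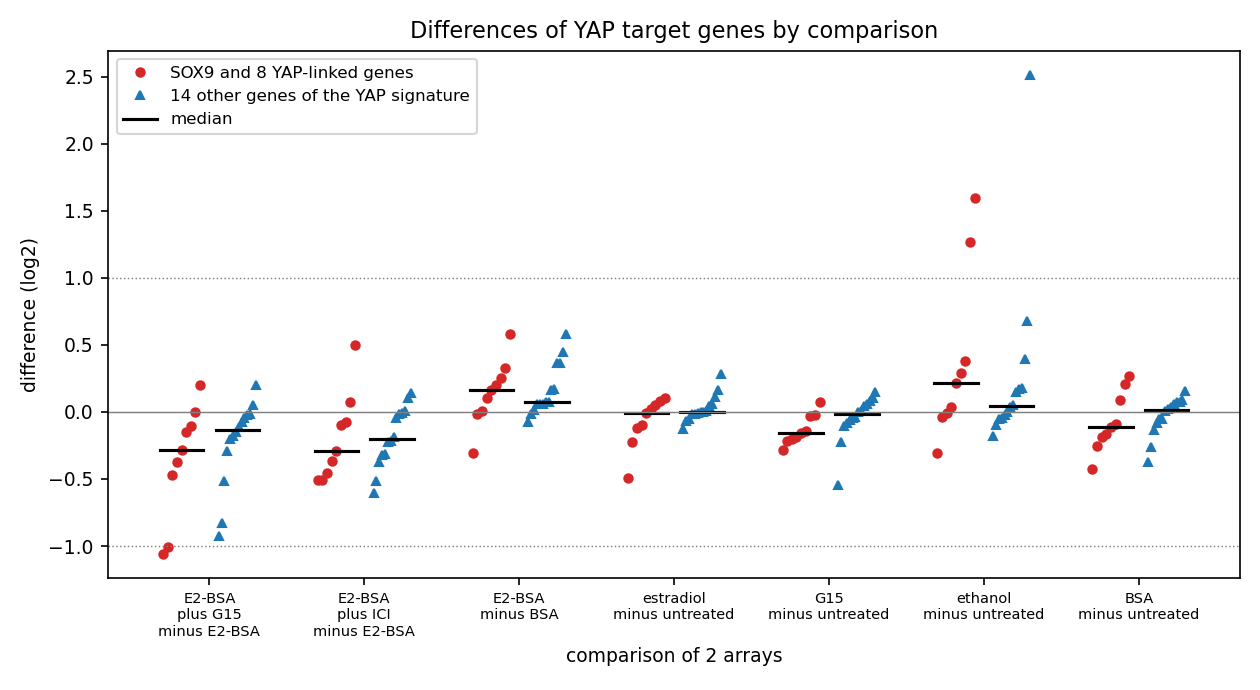
Log2 differences in 7 comparisons for SOX9 and the 8 YAP-linked genes (circles) and for 14 other genes of the YAP signature (triangles), each point 1 gene, with medians as black bars and dotted lines at 2-fold. CCN2 and SOX9 lie at or beyond the lower line with G15 added to E2-BSA and beyond the upper line with ethanol, where GADD45A reaches 2.52.

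The regulators of YAP were read from a list of the Hippo core. Of its 21 genes, among them YAP1, WWTR1 (TAZ), the TEAD factors and LATS1, 0 reached 1.5-fold on E2-BSA plus G15 minus E2-BSA, beside 0.794% of all genes, and the median was -0.06. YAP1 ranged from -0.15 with G15 to 0.14 with E2-BSA, and WWTR1 from -0.23 with G15 to 0.39 with ethanol. FRMD6, an upstream activator of the pathway, differed by -0.61 on E2-BSA plus ICI minus E2-BSA, and the adaptor SAV1 by 0.77 on ethanol minus untreated.

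The other lists were read on E2-BSA plus G15 minus E2-BSA, where 51.7% of all genes lay below 0, 46.2% above 0 and 0.794% past 1.5-fold in either direction. The 12 measured SRF and actin genes had a median of -0.07, with 10 of 12 below 0 and 0 past 1.5-fold. Among 15 further CCN and SOX genes, 12 lay above 0, the median was 0.07, and SOX8 differed by 0.61. Of 10 genes listed as TGF-beta targets 9 lay below 0 with a median of -0.30. ID1, named above as a target of bone morphogenetic protein signalling, ID3 and SMAD7 passed 1.5-fold. TGFBI, PMEPA1 and SKIL of this list did not. The GPER-linked list of 9 genes without CCN2 had a median of -0.07 and 0 past 1.5-fold. Of 7 fibroblast markers, a cell type rich in CCN2, 6 lay above 0 with a median of 0.07, and 0 passed 1.5-fold. The medians were 0.03 for 8 luminal markers, 0.04 for 4 endothelial markers and -0.04 for 3 leukocyte markers.

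The genes with the pattern most like that of CCN2 were sought among the 368 genes that span at least 2-fold over the 8 arrays. They were SEPTIN7-DT, SCAMP1-AS1, the chemokine CXCL11, the interferon-inducible GTPase gene GBP1 and AHRR, a repressor of the aryl hydrocarbon receptor, with Pearson r between 0.981 and 0.986. All were highest with ethanol. For SOX9 they were ADM, which encodes the vasodilator adrenomedullin, ASH1L-AS1, SCAND3, STEAP4 and SCAMP1-AS1, with r between 0.939 and 0.971. Over 7 arrays without ethanol, 47 genes spanned 2-fold. The 9 genes named above spanned 0.384 to 0.876 there and so could not be ranked. CCN2 was then followed by MICALCL (r = 0.781), SOX9 (0.775), PLPP3 (0.771), KANK4 (0.762) and RAC3 (0.729). SOX9 was followed by CCN2 (0.775), KANK4 (0.763), MICALCL (0.714), HOXC13 (0.624) and LMNB1 (0.586). CCN2 and SOX9 span 2-fold over these 7 arrays only through the difference that chose them. Their likeness to each other is thus in part built in by the choice, and nothing is read from it.

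Within the set, LATS2 followed CCN2 with r = 0.961 over 8 arrays and 0.884 without ethanol, and CCN1 with 0.890 and 0.759. The LATS2 mean joins probe sets that part. With E2-BSA a single probe set stood at 0.58 and the others between -0.04 and -0.02. With ethanol they ranged from -0.04 to 0.67. The arrays that chose CCN2 enter each coefficient. F3 followed CCN2 with r = 0.632 and 0.498, and AXL ran against it at -0.443 and -0.462. These coefficients describe 8 or 7 single arrays that share one centring, and no p-value is given for them.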

How the data were processed

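Total RNA of 8 SKBR3 samples, 1 per condition, was biotin-labelled and hybridized to arrays of 54675 probe sets, per the labels' protocols. The deposited log2 values lie between -2.27 and 7.85 with a median of 0.00 on every array. In each probe set at most 4 of 8 arrays lie above 0 and at most 4 below, as after centring on a median, and 48.3% of probe sets hold an exact 0 on at least 2 arrays. The sources used here do not give probe summarization, normalization, software or log base. Values were used as deposited, without a filter on low values. Of the probe sets, 41091 carried 1 gene in the platform annotation; symbols of 41037 were updated by gene identifier (RefSeq, GRCh38.p14), and probe sets of a gene were averaged, giving 19775 genes. No probe set of the 9 genes names a second gene.

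A difference is 1 array minus another. Genes were counted at 2-fold and at 1.5-fold (log2 difference 0.585). With 1 array per condition there was no test. As an alternative, limma 3.58.1 (R 4.3.3) was fitted across all genes with the ethanol, BSA and untreated arrays as 1 group and Benjamini-Hochberg adjustment. The steps were tested on simulated data. The 9 genes and the gene lists were chosen with earlier results of these data known. Named genes were the 9, members of the lists at 2-fold or used as examples after their values were seen, and, for CCN2 and SOX9, the 5 genes of highest Pearson r among those spanning 2-fold. Chosen after the values of the 9 genes were seen were the rule for opposite effects with and without G15, which of the counts over 14 comparisons, 2 fold sizes and their directions are given, the comparison of F3 with ID1, and the promoters shown. Alternatives were array centring, quantile normalization, other summaries of probe sets, leaving out _x_at and _s_at probe sets, and other references. The number of arrays limits the precision.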

Additional observations from a re-analysis of the deposited data

Results flagged for a closer look

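For 2 genes E2-BSA went with opposite signs in the absence and presence of G15, each time by more than the SD of 0.166 between the BSA and untreated arrays. This rule was set after the values were seen. The labels give no BSA on the G15 array, so the 2 effects also differ in whether the carrier is taken out. CCN2 gave -0.54 on E2-BSA plus G15 minus G15 and 0.58 on E2-BSA minus BSA. SOX9 gave -0.30 on E2-BSA plus G15 minus G15 and 0.32 on E2-BSA minus BSA. With 1 array per condition the difference between the 2 effects was not tested, and 3.56% of all genes had opposite signs of this size. Both genes were chosen by E2-BSA plus G15 minus E2-BSA, and each effect holds 1 of these arrays, so the opposite signs are in part built in by the choice. With limma's 3-array reference in place of BSA, E2-BSA gave -0.12 for CCN2 and 0.08 for SOX9, and the opposite signs of this size were lost. Groups of 1 array allow no search for outlying samples.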

How the results depend on the processing

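The count of the 9 genes at 2-fold was recomputed 84 times over 14 comparisons and was unchanged or within 1.5 times in 76. Leaving out _x_at and _s_at probe sets removes SOX9 and AXL, and left 1 gene, CCN2, on E2-BSA plus G15 minus E2-BSA, on estradiol minus ethanol and on ethanol minus untreated, where 2 had been counted. Quantile normalization, which makes all arrays share 1 distribution, gave 0 for ethanol minus untreated and for estradiol minus ethanol. With limma's group of 3 arrays as the reference, the count was 0 for estradiol, against 2 with ethanol, and 1 (CCN2) for E2-BSA plus G15, against 0 with BSA. With the mean of the untreated and BSA arrays as the reference the count was 0 for estradiol, and the sign of CCN2 turned, to 0.23 in place of -1.49. Of 728 differences of single genes under these alternatives, 651 stayed within 0.166 of the reported value. Centring each array on its median changed none of 126, since each median is 0.00. The probe set with the largest SD moved 24 of 126, the median of the probe sets moved 3, quantile normalization moved 9, and leaving out _x_at and _s_at probe sets moved 3 of 98. Limma's reference moved 25 of 63, and the mean of the untreated and BSA arrays moved 12 and reversed 1 of 63. On E2-BSA minus BSA and E2-BSA minus untreated, limma's reference turned the sign of CCN2, to -0.12. It also turned CCN1, ANKRD1 and F3 below 0 on E2-BSA minus BSA. On E2-BSA minus untreated it turned AMOTL2, to -0.03, and AJUBA, to 0.14. Other references were tried where the reference was ethanol, BSA or untreated. Of 140 list medians, 14 moved by more than 0.166 without _x_at and _s_at probe sets. By Pearson r, the 7 arrays without ethanol shared 0 of the 5 genes most like CCN2 and 0 of those most like SOX9 with the 8 arrays, since none of the earlier names spans 2-fold there. Over the 8 arrays, the lists by Pearson r and Spearman rho shared 1 of 5 for each gene. No paired analysis was possible because each condition has 1 array and no replicate numbers to pair. With 1 array per condition, no difference of a single gene can be set against a replicate error.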
